A study of Mus musculus with 6 samples.

Results

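C-type lectin receptors are membrane proteins through which dendritic cells (DCs) bind sugars, dead cells or other ligands. Some activate the cell through tyrosine motifs or adaptor chains that recruit the kinase SYK, while others carry inhibitory tyrosine motifs that recruit phosphatases. Because several of them are restricted to one DC subset, they also serve as subset markers. The 10 receptors described here were chosen by name, without the Cd209 genes, from the 54532 gene identifiers listed for each library. Earlier results of these data were known when they were chosen. Textbook knowledge places 3 of them on cDC1s, namely *Clec9a*, *Clec12a* and *Ly75*. The other 7, *Clec4a1*, *Clec4a2*, *Clec4a3*, *Clec4a4*, *Clec4n*, *Clec7a* and *Clec10a*, are better known from cDC2s, monocytes and macrophages, and are called cDC2-type below. Each of the 10 symbols matched 1 identifier, and all 10 genes had enough reads to be tested.

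The cells were cDC1s grown for 8 days from mouse bone marrow with 80 ng/mL FLT3L, the cytokine that drives DC development (cDC1s FL). They were sorted as CD24+ CD11c+ cells negative for B220, CD115 and CD172a. Libraries were made from 3 *c-Jun/JunB* fl/fl cultures, labelled WT, and from 3 cultures labelled KO, whose genotype is given as *c-Jun/JunB* fl/fl with *Itgax*-Cre (hereafter fl/fl 1 to 3 and Δ/Δ 1 to 3). Both groups carry the floxed alleles of *c-Jun* and *JunB*, and in the second group Cre recombinase is driven by the *Itgax* (CD11c) promoter, which is active in DCs and some other myeloid cells. The mice were adults of a mixed 129Sv × C57BL/6 background. No source used here gives the age or sex behind a single library. Which mouse each culture came from is not in the labels, so p-values measure the spread between these cultures.

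Reads counted on genes ran from 21693217 to 26788296 per library. Values are CPM, the reads of a gene relative to its library's reads on the genes tested below, scaled with edgeR's TMM factors. They are listed in the order of libraries 1 to 3, and means carry the SD over 3 cultures. Levels of different genes are compared only as CPM per kb of exon. *Junb* was lower in every Δ/Δ library (110.4 to 211.6 CPM) than in every fl/fl library (273.9 to 413.0 CPM), with an edgeR adjusted p = 0.0729. *Jun* overlapped between the genotypes, at 44.3 to 60.5 CPM for Δ/Δ against 52.5 to 70.9 CPM for fl/fl (edgeR adjusted p = 0.345). The 2 transcripts therefore separate the labelled groups only in part, and the share of cells with deleted alleles was not measured in these libraries. By quantitative RT-PCR, the authors report deletion of both genes in cDC1s and cDC2s sorted from spleen, and in cDC1s from lymph nodes, of this Cre model. They also measured both transcripts by this method in cDC1s FL and their precursors, sorted from FLT3L cultures of both genotypes. The outcome for *c-Jun* and *JunB* in those cultured cells is shown in a figure and not stated in the paper's text. Of the cDC1 markers, *Xcr1*, the chemokine receptor that defines the subset, measured 421.1 to 475.0 CPM for fl/fl against 122.0 to 201.3 CPM for Δ/Δ. *Irf8*, which encodes the lineage-determining factor of cDC1s, was at 2652.7 to 2773.2 and 2728.7 to 2878.6 CPM. The libraries thus carried the labelled cell type's defining transcripts, and *Xcr1* was lower in Δ/Δ (edgeR adjusted p = 0.00812).

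Of the 12894 genes tested with edgeR's quasi-likelihood test, 3.88% had an adjusted p under 0.05, with 2.03% higher and 1.85% lower in Δ/Δ. Of the 10 lectin genes, 2 passed. *Clec12a* fell and *Clec4a1* rose, each by 2.12-fold. Both also passed a further limit of at least 1 on the log2 scale, met by 1.86% of all genes (0.993% higher and 0.869% lower). An unadjusted p under 0.05 was found for 3 of the 10, these and *Clec4a4*, and for 19.4% of all genes. The other 8 had adjusted p-values between 0.167 and 0.902. By fitted direction, all 3 cDC1-type genes had a negative log2 fold change (median −0.32) and all 7 cDC2-type genes a positive one (median 0.46). The median over all genes tested was 0.00. The members and classes were chosen with earlier results of these data known, so these signs are given without a test. These directions were not stable one by one. Those of *Ly75*, *Clec4a2*, *Clec4a3*, *Clec4n* and *Clec7a* turned when single libraries were left out. In bulk RNA, fewer cells of a type and less RNA per cell cannot be told apart.

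**Figure D1:**
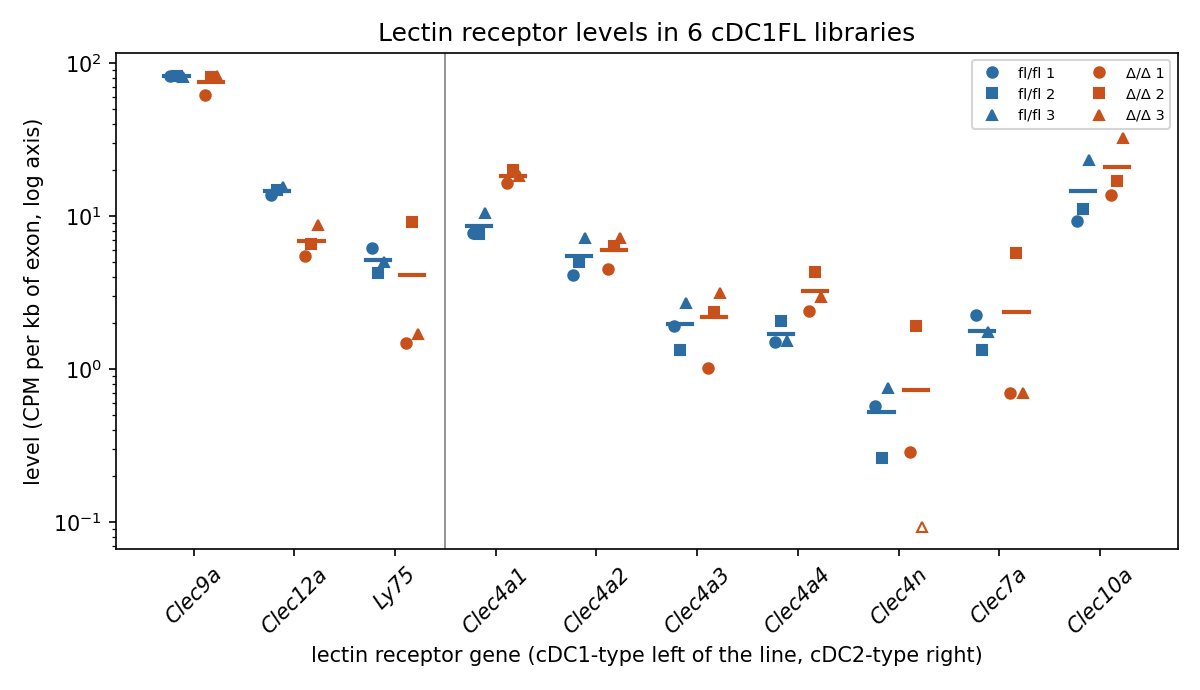
Levels of the 10 lectin receptor genes in CPM per kb of exon on a log axis, with 1 marker per library (blue fl/fl, orange Δ/Δ) and a bar at the mean of 3 cultures. *Clec9a* stands above all others at 61.7 to 82.9, *Clec12a* and *Clec4a1* separate by genotype, and the open triangle marks Δ/Δ 3 without a *Clec4n* read, drawn at the level of 3 reads.

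*Clec9a* encodes DNGR-1, a receptor for actin filaments exposed by dead cells, which marks cDC1s and their precursors. It lies on chromosome 6 (ENSMUSG00000046080.17, GRCm38, 129408862 to 129424763, plus strand). It measured 270.1, 273.1 and 266.8 CPM across the fl/fl libraries against 203.1, 266.5 and 270.3 CPM across the Δ/Δ libraries. Only Δ/Δ 1 was lower than the rest, and Δ/Δ 2 and Δ/Δ 3 lay beside the fl/fl libraries. The means were 270.0 ± 3.15 CPM for fl/fl against 246.6 ± 37.7 CPM for Δ/Δ (log2 fold change −0.13 ± 0.11 SE, edgeR adjusted p = 0.554). The difference plus or minus 2 standard errors ran from −0.35 to 0.09 on the log2 scale, so a fall such as that of *Clec12a* lay outside it. Without Δ/Δ 1 the log2 fold change was −0.01. Its first exon shares 184 bases, 5.6% of its exon bases, with *Clec1b* on the same strand, and STAR counts no read that lies on both genes. *Clec1b* itself had at most 0.560 CPM.

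*Clec12a* encodes MICL, an inhibitory receptor that binds uric acid crystals (ENSMUSG00000053063.11, chromosome 6, 129342691 to 129365303, plus strand). It measured 75.6, 81.8 and 85.2 CPM across the fl/fl libraries against 30.3, 36.1 and 48.1 CPM across the Δ/Δ libraries. Every Δ/Δ library was below every fl/fl library. Its mean fell from 80.9 ± 4.84 CPM to 38.2 ± 9.07 CPM in Δ/Δ (log2 fold change −1.08 ± 0.16 SE, edgeR adjusted p = 0.0166). DESeq2's Wald test gave an adjusted p = 3.68e-09. The edgeR adjusted p was over 0.05 without fl/fl 1 (0.0837), fl/fl 2 (0.0979) or fl/fl 3 (0.0677), while the log2 fold change stayed between −1.29 and −0.94 over all alternatives.

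*Ly75* encodes DEC-205, an endocytic receptor of cDC1s that also increases on DCs as they mature (ENSMUSG00000026980.15, chromosome 2, 60292103 to 60383303, minus strand). It measured 42.4, 29.1 and 34.6 CPM across the fl/fl libraries against 10.2, 63.1 and 11.7 CPM across the Δ/Δ libraries. Δ/Δ 2 was the highest of all 6 libraries, and Δ/Δ 1 and Δ/Δ 3 were the lowest. With all libraries the log2 fold change was −0.32 with a standard error of 0.66 (edgeR adjusted p = 0.828). Without Δ/Δ 2 it was −1.70 with a standard error of 0.18 (edgeR adjusted p = 0.00643), and without Δ/Δ 1 or Δ/Δ 3 it was 0.08 and 0.05. The call for *Ly75* thus turned on Δ/Δ 2, and its direction on which Δ/Δ library was left out. An antisense transcript, *Gm13571*, covers 3.6% of its exon bases. Which strand setting gave the counts is not stated in the methods or labels.

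The library Δ/Δ 2 also stood apart in genes of mature DCs, the activated state in which DCs migrate to lymph nodes. The 10 genes of a mature DC list summed to 867.7 to 1208.4 CPM for fl/fl libraries, to 359.3 and 540.6 CPM for Δ/Δ 1 and Δ/Δ 3, and to 2078.2 CPM for Δ/Δ 2. All 10 were highest in Δ/Δ 2. They include *Ccr7*, the chemokine receptor for migration to lymph nodes, at 151.5 to 221.4 CPM for fl/fl against 26.9, 376.4 and 60.8 CPM for the Δ/Δ libraries. With all libraries, 0 of the 10 had an edgeR adjusted p under 0.05, and 1, *Cd80*, had an unadjusted p under 0.05. From high to low, the 6 libraries came in 1 order for the mature DC sum, *Ly75* and *Clec7a*. That order was Δ/Δ 2, fl/fl 1, fl/fl 3, fl/fl 2, Δ/Δ 3 and Δ/Δ 1. It was noticed after the values had been seen, and its part in the results for these genes was not tested.

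**Figure D2:**
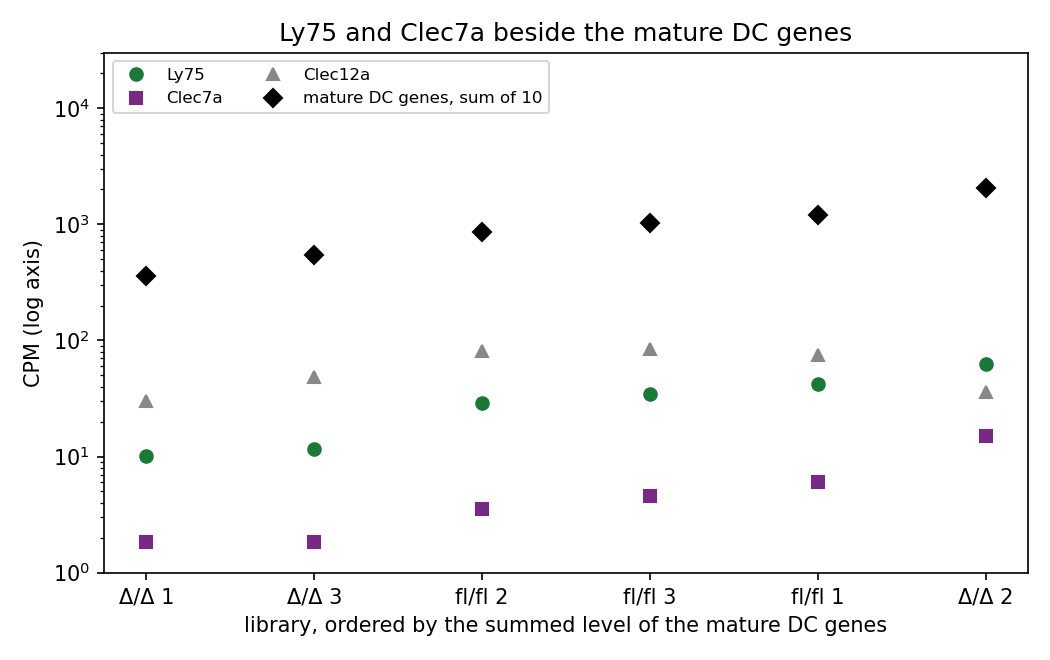
CPM on a log axis for *Ly75*, *Clec7a* and *Clec12a* and for the sum of 10 mature DC genes, with the 6 libraries ordered by that sum. *Ly75* (10.2 to 63.1) and *Clec7a* (1.83 to 15.1) rise in the same library order as the sum (359.3 to 2078.2), while *Clec12a* follows genotype, with Δ/Δ 2 among the low libraries at 36.1.

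*Clec7a* encodes Dectin-1, the receptor for fungal beta-glucans, which signals through SYK (ENSMUSG00000079293.11, chromosome 6, 129461591 to 129472779, minus strand). It measured 5.98, 3.52 and 4.58 CPM across the fl/fl libraries against 1.83, 15.1 and 1.85 CPM across the Δ/Δ libraries. Δ/Δ 2 exceeded the other Δ/Δ libraries by 8.28-fold and 8.17-fold, and these were below every fl/fl library. The log2 fold change was 0.41 with a standard error of 0.80 (edgeR adjusted p = 0.821). It turned to −1.35 without Δ/Δ 2, with a standard error of 0.29 (edgeR adjusted p = 0.0506). The annotation classes *Clec7a* as a polymorphic pseudogene.

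*Clec4n* encodes Dectin-2, a receptor for fungal mannans that pairs with the adaptor FcRγ (ENSMUSG00000023349.14, chromosome 6, 123229843 to 123247021, plus strand). Its counts were low, with 21, 10 and 25 reads in fl/fl 1, 2 and 3 and 10, 58 and 0 reads in Δ/Δ 1, 2 and 3. Again Δ/Δ 2 was the highest library. A count of 0 in Δ/Δ 3 allows up to 3 reads, which is 0.132 CPM there and covers counting error only. The log2 fold change of 0.46 had a standard error of 1.15 (edgeR adjusted p = 0.861) and turned to −1.81 without Δ/Δ 2. Both the highest and the lowest of the 6 libraries were Δ/Δ. Without Δ/Δ 2, then, *Ly75*, *Clec7a* and *Clec4n* all had negative log2 fold changes, of which that of *Ly75* passed the threshold.

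*Clec4a1* encodes DCIR4, a member of the DC immunoreceptor (DCIR) family (ENSMUSG00000049037.8, chromosome 6, 122921848 to 122934619, plus strand). It measured 12, 11.9 and 16.4 CPM across the fl/fl libraries against 25.6, 31.3 and 28.5 CPM across the Δ/Δ libraries. Every Δ/Δ library was above every fl/fl library. Its mean rose from 13.5 ± 2.57 CPM to 28.5 ± 2.85 CPM in Δ/Δ (log2 fold change 1.08 ± 0.16 SE, edgeR adjusted p = 0.0152). DESeq2's Wald test gave an adjusted p = 5.01e-08. The edgeR adjusted p was over 0.05 without fl/fl 1 (0.0953) or fl/fl 2 (0.0928), and the log2 fold change lay between 1.00 and 1.25 over all alternatives. Without Δ/Δ 2 it was 1.01 (edgeR adjusted p = 0.0255).

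The other DCIR genes did not pass. *Clec4a2* encodes DCIR1, which carries an inhibitory tyrosine motif (ENSMUSG00000030148.15, chromosome 6, 123106428 to 123143999, plus strand). It measured 12.1, 14.7 and 21.0 CPM across the fl/fl libraries against 13.1, 18.6 and 21.1 CPM across the Δ/Δ libraries. The 2 groups overlapped almost wholly (log2 fold change 0.14 ± 0.25 SE, edgeR adjusted p = 0.798). Plus or minus 2 standard errors this spans −0.36 to 0.64, which leaves out a rise as large as that of *Clec4a1*. *Clec4a3* encodes DCIR3 (ENSMUSG00000043832.13, chromosome 6, 122952515 to 122969875, plus strand) and measured 2.55, 1.78 and 3.56 CPM across the fl/fl libraries against 1.34, 3.13 and 4.18 CPM across the Δ/Δ libraries. It overlapped as well, with a log2 fold change of 0.13 and a standard error of 0.45 (edgeR adjusted p = 0.902). *Clec4a4* encodes DCIR2, the inhibitory receptor known as the 33D1 antigen of cDC2s (ENSMUSG00000059639.2, chromosome 6, 122990367 to 123024105, plus strand). It measured 1.16, 1.59 and 1.19 CPM across the fl/fl libraries against 1.87, 3.36 and 2.29 CPM across the Δ/Δ libraries, on 28 to 72 reads a library. The groups of *Clec4a4* did not overlap, but its log2 fold change of 0.93 with a standard error of 0.31 missed the threshold (edgeR adjusted p = 0.167, with 0.0834 to 0.445 over all alternatives). Groups without overlap were found for 26.0% of all genes tested and for 3 of these 10, *Clec12a*, *Clec4a1* and *Clec4a4*.

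*Clec4a2* and *Clec4a4* are near copies, and reads that map to both were left out of the counts. Their coding sequences agree at 85.7% of 708 aligned bases, against 70.2 to 74.4% for the other pairs among the 4 DCIR genes. Of all 75-base words in the *Clec4a4* transcript, 12.68% also occur in another gene, against 3.24% for *Clec4a2* and 0.00% for *Clec4a1* and *Clec4a3*. The longest coding run that both genes hold without a difference is shown because paired reads lying wholly within it cannot be assigned. It measures 163 bases over 3 exons, at chr6:123123662-123127989 in *Clec4a2* and chr6:122990441-123004046 in *Clec4a4* (GRCm38, plus strand, introns left out).
Clec4a2 and Clec4a4: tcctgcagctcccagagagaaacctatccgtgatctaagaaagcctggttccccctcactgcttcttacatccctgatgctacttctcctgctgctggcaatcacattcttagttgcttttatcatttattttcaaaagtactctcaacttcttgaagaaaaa
How many reads either gene lost in this way was not tested.

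*Clec10a* encodes MGL1, a receptor for galactose and N-acetylgalactosamine on cDC2s and macrophages (ENSMUSG00000000318.16, chromosome 11, 70156197 to 70170834, plus strand). It measured 27, 32.3 and 67.7 CPM across the fl/fl libraries against 39.6, 48.9 and 93.8 CPM across the Δ/Δ libraries. The spread within a genotype, 2.51-fold in fl/fl and 2.37-fold in Δ/Δ, exceeded the 1.44-fold difference of the means. The log2 fold change was 0.52 with a standard error of 0.43 (edgeR adjusted p = 0.544), and ran from 0.06 without Δ/Δ 3 to 1.03 without fl/fl 3. *Mgl2*, its neighbour and near copy (85.3% of 912 aligned coding bases), was also high in fl/fl 3 and Δ/Δ 3, with 6.96 and 7.05 CPM, but was at 5.41 CPM in Δ/Δ 2. The libraries fl/fl 3 and Δ/Δ 3 had the highest sum of 12 cDC2 markers, mostly *Ccr2*, within their genotypes. It was 1268.4 CPM for fl/fl 3 against 2380.1 CPM for Δ/Δ 3, and the part of this in the *Clec10a* values was not tested.

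**Figure D3:**
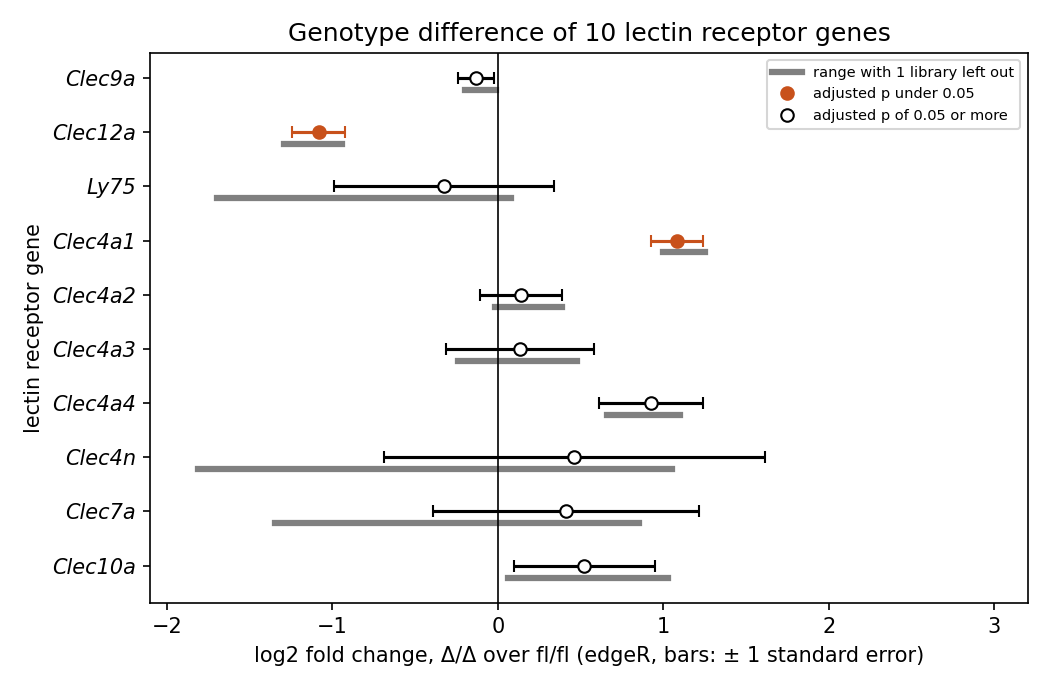
Log2 fold change of each lectin gene, Δ/Δ over fl/fl, with 1 standard error (edgeR), and in grey the range of the estimate when 1 library is left out. *Clec12a* (−1.08) and *Clec4a1* (1.08) are the filled points, with an adjusted p under 0.05, the grey ranges of *Clec4n* (−1.81 to 1.05) and *Clec7a* (−1.35 to 0.85) lie on both sides of 0, and that of *Ly75* runs from −1.70 to 0.08.

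Ranked by CPM per kb of exon, *Clec9a* led in both genotypes, at 82.0 ± 0.957 for fl/fl against 74.9 ± 11.5 for Δ/Δ, and separate from the next gene. In fl/fl, *Clec12a* (14.6 ± 0.876) and *Clec10a* (14.6 ± 7.63) followed without a difference beyond their spread, then *Clec4a1* (8.63 ± 1.65), *Clec4a2* (5.45 ± 1.57) and *Ly75* (5.12 ± 0.967). *Clec4a1* overlapped with *Clec10a* and was above *Clec4a2* in every fl/fl library. The genes *Clec4a3*, *Clec7a* and *Clec4a4* lay between 1.69 and 1.98 and overlapped, and *Clec4n* was lowest at 0.526 ± 0.246. In Δ/Δ the order changed below *Clec9a*. *Clec10a* (21.0, with 13.7 to 32.4 in single libraries) and *Clec4a1* (18.3 ± 1.83) came next, and *Clec4a1* was above *Clec12a* (6.91 ± 1.64) in every Δ/Δ library. *Clec12a*, *Clec4a2* and *Ly75* overlapped there, and so did each of the lower genes with the next.

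Summed per kb, the 3 cDC1-type genes gave 101.8, 101.9 and 101.4 in fl/fl 1, 2 and 3 and 68.7, 96.6 and 92.5 in Δ/Δ 1, 2 and 3. The 7 cDC2-type genes gave 27.4, 28.9 and 47.8 in fl/fl and 39.0, 57.7 and 64.7 in Δ/Δ 1, 2 and 3. Their share of the summed level of these 10 genes was 21.2, 22.1 and 32.0% in fl/fl and 36.2, 37.4 and 41.2% in Δ/Δ, without overlap. The cDC2-type sums themselves overlapped, with 39.0 in Δ/Δ 1 below 47.8 in fl/fl 3. Single genes weighed heavily in the sums. *Clec9a* gave 81.0 in fl/fl 3 and 61.7 in Δ/Δ 1, and *Clec10a* gave 23.4 in fl/fl 3 and 32.4 in Δ/Δ 3. Since the members and classes were chosen with results known, the cDC2-type share is given without a test. Within the 4 DCIR genes, *Clec4a1* held 47.6 to 50.6% of the summed level in fl/fl and 57.9 to 67.5% in Δ/Δ.

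**Figure D4:**
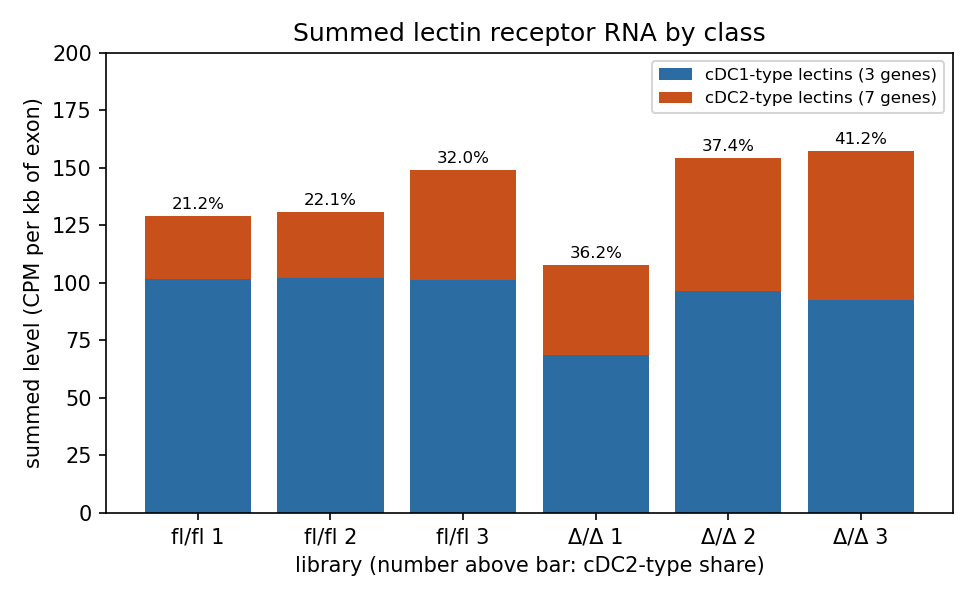
Summed level in CPM per kb of exon of the 3 cDC1-type (blue) and 7 cDC2-type (orange) lectin genes in each library, with the cDC2-type share printed above each bar. The share is 21.2 to 32.0% in fl/fl and 36.2 to 41.2% in Δ/Δ, and Δ/Δ 1 has the lowest total of cDC1-type lectin RNA, 68.7.

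The 8 members on chromosome 6 lie in 2 clusters. One, of 368.0 kb, holds the 4 DCIR genes, *Clec4n* and 4 further lectin genes. The 7 genes tested there had a positive log2 fold change with all libraries, from 0.13 to 1.08, beside 6488 of 12894 over all genes tested. Of these 7, 1 passed, *Clec4a1*. The values of *Clec4a2*, *Clec4a3* and *Clec4n* turned negative when single libraries were left out. *Clec4b1* and *Clec4b2*, which encode the activating DCAR receptors, had log2 fold changes of 0.49 and 0.56 (edgeR adjusted p = 0.191 and 0.218). *Clec4d* and *Clec4e*, the latter encoding the mycobacterial glycolipid receptor Mincle, had too few reads to be tested. The other cluster, of 164.5 kb, holds *Clec12a*, *Clec9a* and *Clec7a*. *Clec12a*, which passed, and *Clec9a*, which did not, lie 66.2 kb apart by their first bases.

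**Figure D5:**
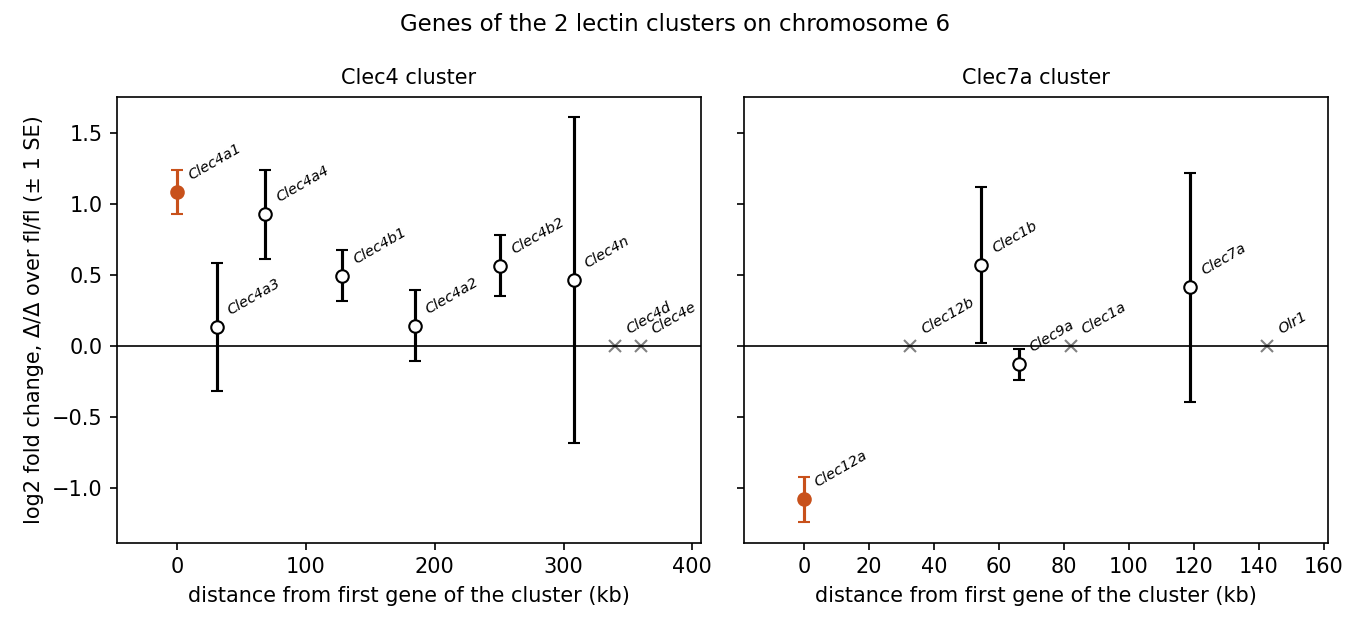
Log2 fold change (with 1 standard error) of the genes in both lectin clusters of chromosome 6 against distance in kb from the first gene of each cluster. Filled orange points had an adjusted p under 0.05 and grey crosses mark genes with too few reads. *Clec4a1* opens the first cluster at 1.08, and *Clec12a* opens the second at −1.08.

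Promoters, from 250 bases before to 50 bases after the start in RefSeq (GRCm38.p6), were at hand for 7 of the 10 genes, not for *Clec4a4*, *Clec4n* and *Clec10a*. They were searched on both strands for the AP-1 motif TGANTCA, which Jun proteins can bind. It was also sought with GAAA after 4 further bases, or directly after GAAA, both composite motifs of AP-1 with IRF factors. A motif of IRF with PU.1 was GGAA and GAAA set 2 bases apart. The AP-1 motif occurs in 7.81% of 32851 promoters, and among the lectins in *Clec12a* (TGAATCA, 213 bases before the start) and *Clec4a2* (TGACTCA, after the start). The *Clec12a* window lies within an untranslated exon of another annotated transcript and is not shown. The composite motifs, found in 0.119% and 0.125% of all promoters, were in none of the 7. The IRF with PU.1 motif, in 2.72% of all promoters, was in *Clec4a1* and *Clec7a*. The 250 bases before the start of *Clec4a1* (chr6:122921598-122921847, plus strand) are shown because it is the lectin that rose. Capitals mark its IRF with PU.1 match, which reads on the opposite strand.
Clec4a1: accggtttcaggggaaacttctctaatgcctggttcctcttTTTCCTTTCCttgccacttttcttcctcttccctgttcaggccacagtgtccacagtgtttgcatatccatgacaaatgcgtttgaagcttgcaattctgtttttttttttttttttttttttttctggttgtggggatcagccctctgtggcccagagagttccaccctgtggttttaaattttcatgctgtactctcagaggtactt
The matches describe the letters in these windows and no binding was measured.

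Of 25 further myeloid lectin genes, 12 had enough reads and 0 had an adjusted p under 0.05 by edgeR, DESeq2 or limma-voom. An unadjusted p under 0.05 by edgeR was found for 3, *Clec4b1*, *Clec4b2* and *Asgr2*, beside 19.4% of all genes tested. Of the 12 log2 fold changes, 8 were positive, beside 6488 of 12894 over all genes tested. *Clec2d*, a ligand of natural killer cell receptors, was the most abundant of these further lectins at 39.5 to 75.8 CPM and overlapped between genotypes. *Asgr2*, a subunit of the asialoglycoprotein receptor, measured 0.926 to 2.04 CPM for fl/fl against 1.91 to 4.85 CPM for Δ/Δ (log2 fold change 1.2 ± 0.43 SE, edgeR adjusted p = 0.189). *Asgr2* passed without Δ/Δ 1 (0.0428). *Mrc2*, an endocytic collagen receptor, passed as lower without Δ/Δ 2 (log2 fold change −2.74, edgeR adjusted p = 0.0361), and had a log2 fold change of −1.53 with all libraries (edgeR adjusted p = 0.273).

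Among 23 genes of lectin receptor signalling, 3 had an adjusted p under 0.05, 2 higher and 1 lower in Δ/Δ, beside 3.88% of all genes tested. Groups without overlap were found for 10 of the 23, beside 26.0% of all genes. *Fcer1g*, which encodes the FcRγ adaptor that Dectin-2 uses, measured 65.9, 69.5 and 67.2 CPM across the fl/fl libraries against 98.0, 93.4 and 100.2 CPM across the Δ/Δ libraries. The groups lay well apart. The log2 fold change was 0.52 with a standard error of 0.06 (edgeR adjusted p = 0.00556), and the adjusted p stayed under 0.05 with any 1 library left out, at most 0.0497. *Bcl10*, a scaffold that carries lectin signals to NF-κB together with CARD9 and MALT1, rose from 48.6 ± 0.655 to 60.4 ± 2.22 CPM (edgeR adjusted p = 0.0370). *Card9* and *Malt1* did not pass (edgeR adjusted p = 0.0588 and 0.0732). With no filter on low counts both did (0.0345 and 0.0385), while *Bcl10* did not (0.0625). *Vav3*, a guanine nucleotide exchange factor downstream of SYK, fell from 166.8 ± 10.5 to 128.3 ± 1.61 CPM (edgeR adjusted p = 0.0230). The adjusted p of *Bcl10* was over 0.05 without each of the fl/fl libraries (0.124 to 0.182), without Δ/Δ 2 (0.0668) and without Δ/Δ 3 (0.0550). That of *Vav3* was over it without each of the fl/fl libraries (0.0792 to 0.105) and without Δ/Δ 3 (0.0581). *Syk* itself measured 216.3 to 256.2 CPM for fl/fl against 218.5 to 294.3 CPM for Δ/Δ (edgeR adjusted p = 0.524). *Ptpn6*, the phosphatase SHP-1 that inhibitory lectins recruit, had 596.2 to 608.3 and 616.4 to 726.3 CPM (edgeR adjusted p = 0.350).

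Marker lists of other cell types were summed as well, although the sort had removed cells with B220 (on pDCs and B cells), CD115 (on monocytes) or CD172a (on cDC2s). The 12 cDC2 markers, mostly *Ccr2*, summed to 901.0 to 1268.4 CPM for fl/fl against 1828.5 to 2380.1 CPM for Δ/Δ. *Ccr2* alone had 659.1 to 909.5 CPM for fl/fl against 1391.8 to 1724.4 CPM for Δ/Δ. Of the 12, 9 had a positive and 3 a negative log2 fold change, and 3 passed the threshold, all higher (*Klf4*, *Cd4*, *Ccr2*). Of the cDC2 markers, *Sirpa*, which encodes CD172a, had 44.7 to 60.5 and 40.9 to 46.8 CPM, and *Itgam* 12.1 to 21.3 and 27 to 42.8 CPM. The 12 cDC1 markers summed to 12021.4 to 12224.7 and 9777.8 to 11719.8 CPM, with 3 past the threshold, all lower (*Xcr1*, *Tlr3*, *Snx22*). By direction these 12 were split, with 6 positive and 6 negative log2 fold changes, and *Cadm1* was at 212.7 to 231.0 and 266.2 to 305.0 CPM (edgeR adjusted p = 0.0615). For 9 pDC markers the sums were 225.0 to 243.6 and 245.2 to 295.3 CPM, with 1 of 7 tested past, *Ccr9*, which was higher. *Siglech* was at 7.79 to 10.8 and 16.5 to 37.5 CPM, and *Bst2*, with 89.1 to 109.2 and 70.5 to 79.0 CPM, lay the other way (edgeR adjusted p = 0.0571 and 0.0572). The 12 monocyte and macrophage markers, mostly *Lyz2*, summed to 1794.8 to 1976.1 and 1969.5 to 2594.6 CPM with 1 gene past, *Adgre1*, and the defining *Csf1r* and *Fcgr1* stayed at or below 6.81 and 1.17 CPM. Basophil and mast cell markers summed to 0.463 to 1.26 CPM for fl/fl against 1.10, 16.8 and 2.47 CPM for the Δ/Δ libraries, with *Mcpt8* at 4.81 CPM in Δ/Δ 2. B cell markers reached 49.9 CPM in Δ/Δ 2, against 12.8 to 30.9 CPM elsewhere. Neutrophil markers stayed at or below 16.5 CPM (*S100a8* at most 5.39 CPM) and T and NK cell markers at or below 1.06 CPM (*Cd3e* at most 0.297 CPM). Of the 10 genes of these 4 lists with enough reads, 0 had an edgeR p under 0.05, adjusted or not. Only 1 of the 6 basophil and mast cell markers, *Gata2*, had enough reads. Of those not tested, *Mcpt8*, *Prss34* and *Cpa3* were higher in every Δ/Δ than in every fl/fl library. Such groups without overlap, in either direction, were found for 26.0% of all genes tested. Their reads were 103, 118 and 51 in Δ/Δ 2, but only 5, 10 and 3 in Δ/Δ 1 and 13, 29 and 9 in Δ/Δ 3. In single fl/fl libraries these genes had at most 4, 6 and 3 reads. *Ms4a2* and *Fcer1a* overlapped between the genotypes. Whether cells of these other types had a part in the lectin values was not tested.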

How the data were processed

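RNA of FLT3L-derived cDC1s was measured in 6 libraries, 3 a genotype. The authors used STAR 2.6.1a with Gencode vM19 on the mm10 (GRCm38) build and deposited the counts of reads per gene that STAR gave, from uniquely mapped reads, without normalization. STAR's tallies of unmapped, multimapping, unassigned and ambiguous reads (79.12 to 79.70% of reads lay on genes) were not used in library sizes or tests. Names, coordinates and exon lengths came from GENCODE M21 on the same build, in which 54495 of 54532 identifiers were found.

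Counts were tested with edgeR 4.0.16 in R 4.3.3 (TMM, glmQLFit and glmQLFTest with genotype as the sole term, after filterByExpr at its settings of 10 reads a library and 15 in all), with Benjamini-Hochberg adjustment over 12894 genes. Alternatives were DESeq2 1.42.0 or its size factors, limma-voom 3.58.1, other filters, each library left out, a replicate term and a fold limit of 1 on the log2 scale. Members, classes and lists were chosen with earlier results of these data known. The 10 members are named in full, list genes where they passed, and others (*Clec4d*, *Clec4e*, *Clec2d*, *Mgl2*, *Asgr2*, *Mrc2*, *Card9*, *Malt1*, *Syk*, *Ptpn6*, *Irf8*, *Bst2*, *Cadm1*, *Ccr7*, *Cd80*, *Lyz2*, *Gata2*, *Prss34*, *Cpa3*, *Ms4a2*, *Fcer1a*) after their values were seen. The level of 1 B cell marker is not reported here. Levels per kb divide CPM by the union of annotated exons. Chi-square per degree of freedom between libraries lay at 6.77 to 11.3 for pairs of fl/fl and at 30.5 to 42.3 for pairs of Δ/Δ, and all 6 counted as replicates. The steps were tested on simulated counts. Sequences were read from RefSeq and GENCODE, and aligned with Biopython 1.88.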

Additional observations from a re-analysis of the deposited data

How the results depend on the processing

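By edgeR, an adjusted p under 0.05 was reached by 262 genes as higher and 238 as lower. DESeq2's Wald test gave 597 and 496, no filter on low counts gave 418 higher, and the fold limit gave 128 and 112. With 1 library left out the counts ran from 50 to 600 higher and from 43 to 720 lower. Likewise with 1 library left out, cDC1-type lectins past the threshold as lower, 1 with all libraries, ran from 0 to 2, and cDC2-type lectins as higher, also 1, from 0 to 1. *Clec12a* was not past it without fl/fl 1, 2 or 3, nor *Clec4a1* without fl/fl 1 or 2, where fewer genes passed in all. Without Δ/Δ 2, *Ly75* joined *Clec12a*. Other myeloid lectins had 0 to 1 in each direction with 1 library left out, against 0 and 0. Signalling genes, 2 higher and 1 lower, had 6 and 2 by DESeq2, 5 higher with no filter, 1 to 6 and 0 to 1 with 1 library left out, and 0 and 0 under the fold limit.

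Directions turned with 1 library left out for *Ly75* (−1.70 to 0.08), *Clec4a2* (−0.02 to 0.39), *Clec4a3* (−0.24 to 0.48), *Clec4n* (−1.81 to 1.05) and *Clec7a* (−1.35 to 0.85). Limma-voom turned *Clec4n* to −1.26 and *Clec7a* to −0.35. *Clec9a*, *Clec12a*, *Clec4a1*, *Clec4a4* and *Clec10a* kept their direction under all 12 alternatives. Causes were not tested.

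Replicate numbers were not shown to pair the cultures. The correlation of same-numbered deviations from the group means was 0.0909, −0.148 and 0.200, and only the third number matched best with itself in both genotypes. With a replicate block, *Clec10a* passed as higher (log2 fold change 0.54, edgeR adjusted p = 0.0245), so that cDC2-type lectins past the threshold were 2, and signalling genes were 3 higher and 0 lower. Of these, *Card9* (0.0475) and *Malt1* (0.0335) were gained, and *Bcl10* (0.0776) and *Vav3* (0.0508) lost, by edgeR adjusted p. *Clec4n* turned to −0.39 and *Clec7a* to −0.32 with the block. *Clec4n* and *Clec4a4* had the fewest reads, 0 to 58 and 28 to 72 a library, and the stricter filter left *Clec4n* untested.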
